A study of Mus musculus with 12 samples.

Results

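The nuclear genes of the mitochondrial respiratory chain and the ATP synthase were followed in mouse aortic endothelial cells titled as wild type or as null for the transcription factors Ets1, Ets2 or both. They comprised 92 of the 11015 genes represented on the array table. A gene was a member if its symbol began with Nduf, with Sdha to Sdhd, with Uqcr, with Cox4 to Cox8 or with Atp5, or was Cyc1 or Cycs, and each gene was read from its brightest probe set. The members fell into 33 genes of complex I, 4 of complex II, 9 of complex III, 16 of complex IV, 17 of complex V (the ATP synthase), the electron carrier Cycs, and 12 assembly factors (8 Ndufaf and 4 Sdhaf genes) that the letters of the rule also take in. Ndufa4 and Ndufa4l2 were counted with complex IV, to which the protein Ndufa4 was later assigned. Subunits encoded by mitochondrial DNA are not covered by the rule.

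Complex I takes electrons from NADH and complex II takes them from succinate, and both pass them to ubiquinone. Complex III hands them on to cytochrome c and complex IV to oxygen, while complexes I, III and IV pump protons across the inner membrane and complex V uses the gradient to make ATP. Endothelial cells draw much of their ATP from glycolysis, and their respiratory chain is better known for its part in redox signalling, nucleotide synthesis and proliferation.

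RNA of cultured endothelial cells isolated from the aorta of mice aged 4 weeks was hybridised to Affymetrix expression arrays, with values on a log2 scale. The wild-type cells were Ets1+/+; Ets2+/+ and had received lentiviral-egfp. The cells titled Ets1 null were Ets1-/-; Ets2fl/fl with the same lentiviral-egfp, so they carried floxed Ets2 alleles that wild type lacked. The cells titled Ets2 null were Ets1+/+; Ets2fl/fl and those titled Ets1/2 null were Ets1-/-; Ets2fl/fl, and both had received lentiviral-egfp-Cre. Cre was thus present wherever Ets2 was to be lost, and the effects of the pair cannot be told apart. The labels call the arrays of a group biological replicates without saying that each came from its own animal, so p-values measure the spread between these samples.

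Wild type, Ets1 null and Ets2 null had 3 arrays each. Of the 3 columns titled Ets1/2 null, the third equalled the mean of the other two in 20521 of 20523 probe sets and was left out, which leaves 2 arrays there. Their medians over genes were 8.73 and 8.69 (log2), against 9.37 to 9.50 in the other 9 arrays, and each array was therefore centred on its own median. The brightest Ets1 probe set read 9.84 to 10.26 in wild type and 8.31 to 9.17 in Ets1 null (log2, as deposited), but 10.02 and 10.29 in the arrays titled Ets1/2 null, and Ets2 read 11.02 and 9.63 there against 9.72 to 10.70 in wild type. In Ets2 null the Ets2 values of 9.63, 9.35 and 10.13 overlapped wild type, so this probe set does not show the loss that the title names. Where these probes lie relative to the deleted exons is not given in the sources used here. Because these readings go against the title, the group is called the arrays labelled Ets1/2 null. Wild-type array 1 and the 3 Ets2 null arrays were male by Xist and Eif2s3y and all others were female. The lowest of limma's array weights were 0.320 in wild-type array 3 and 0.297 in array 3 of Ets2 null. Of 12 endothelial markers only Kdr, Eng and Cd34 are on the table, so the cell type could be checked in small part only.

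No member was called in either single null, whereas in the arrays labelled Ets1/2 null 21 members were higher and 10 lower than in wild type, 31 of 92 where 28.3% of all genes were called. In what follows a difference is a log2 difference of centred values, on which a difference of 1 is a 2-fold change. Errors after ± are limma's standard errors. A member or gene is named as called where limma's p, after Benjamini-Hochberg adjustment over all 11015 genes, was under 0.05.

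In Ets1 null against wild type limma called 0 members, where 0.00908% of all genes were called, and 1 member had an unadjusted p under 0.05. Member differences ran from -0.42 to 0.34, with a median of 0.02 beside -0.03 over all genes. That 1 member was Ndufb11, an X-linked accessory subunit of the membrane arm of complex I, at 0.34 ± 0.14 (adjusted p = 0.560). Complex I had 26 of 33 members above 0 and a median of 0.07. Complexes III and V lay at medians of 0.03 and -0.02, and complexes II and IV at -0.09 each. The extremes in the other complexes were small and none was called. Sdha differed by 0.13 and Sdhd by -0.21 in complex II, Uqcr10 by 0.11 and Uqcrh by -0.14 in complex III, Cox4i1 by 0.28 and Cox6b2 by -0.35 in complex IV, and Atp5g2 by 0.26 and Atp5o by -0.22 in complex V. The lowest value in complex I was that of Ndufa3 at -0.28. Every wild-type array lay below every Ets1 null array for 9 members and above for 11, where 7.0% and 11.5% of all genes did so.

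In Ets2 null against wild type limma also called no member, where 0.436% of all genes were called, and 8 members had an unadjusted p under 0.05. The median was -0.04 beside -0.01 over all genes, and the members spread from -0.92 to 1.90. Medians were -0.06 in complex I, 0.16 in complex II, -0.02 in complex III, -0.03 in complex IV and -0.04 in complex V. Cox6b2, a testis isoform of a complex IV subunit, stood at the upper end at 1.90 ± 0.60 (adjusted p = 0.149). It read -0.87, -2.31 and 0.34 in the Ets2 null arrays against -2.71, -2.52 and -3.33 in wild type. All 3 Ets2 null arrays were thus above wild type, but they lay far apart from each other. Cox6b2 was dim in wild type, where 1.84% to 6.25% of all genes read lower, against 32.0%, 9.26% and 58.2% in Ets2 null. Whether it was above background was not tested. Cox7c, a small complex IV subunit, had -0.92 ± 0.37 (adjusted p = 0.232), and the accessory complex I subunit Ndufs5 -0.84 ± 0.34 (adjusted p = 0.232). The only probe set of Cox7c read below the array median in every array, at -1.95 to -1.68 in wild type. In Ets1 null it ranged from -2.69 to -1.05. Cycs, which encodes the mobile electron carrier cytochrome c, had -0.69 ± 0.33 (adjusted p = 0.30). The Ets2 null arrays had 3.17, 3.11 and 2.25 and the wild-type arrays 3.38, 3.37 and 3.85, so the groups did not overlap and array 3 was the farthest away. With array weights limma called 3 members here, where 9.85% of all genes were called. Atp5h, a peripheral stalk subunit of the ATP synthase, was higher by 0.51 (adjusted p = 0.0174), and the small ATP synthase subunit Atp5mpl and the complex I assembly factor Ndufaf1 had -0.35 (adjusted p = 0.0422) and -0.71 (adjusted p = 0.0400).

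**Figure D1:**
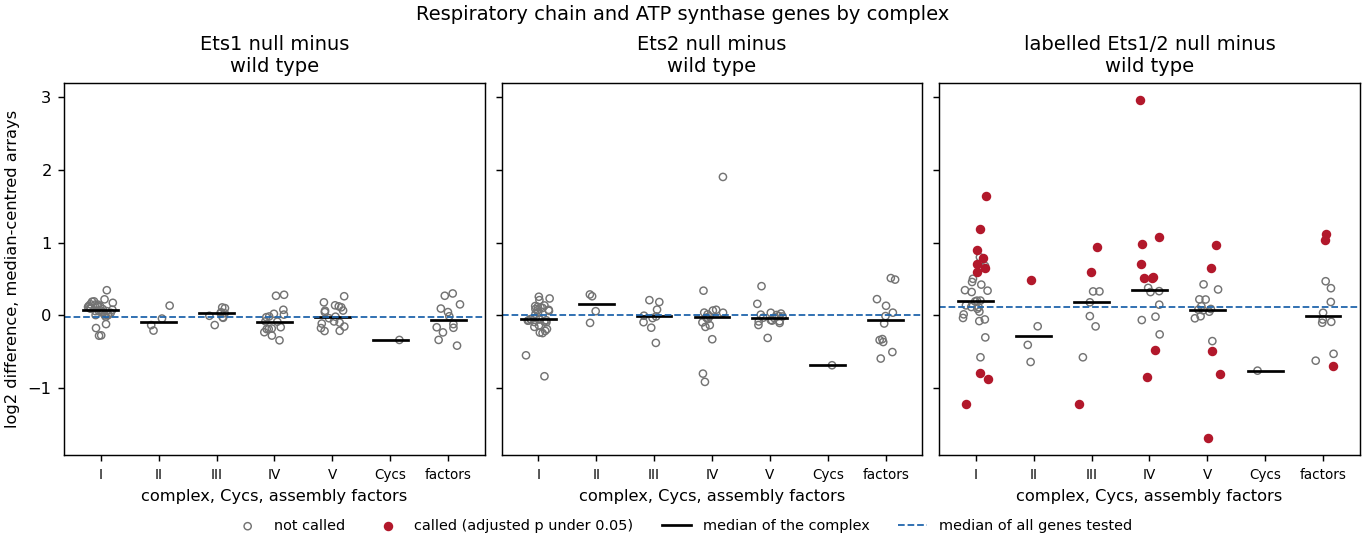
Log2 difference of each member from wild type on median-centred arrays, by complex, with Cycs and the assembly factors as groups of their own. Filled points were called (adjusted p under 0.05), black bars are medians of a complex and the dashed line is the median of all 11015 genes. No point is filled in either single null, and 21 filled points lie above and 10 below 0 in the arrays labelled Ets1/2 null.

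The arrays labelled Ets1/2 null differed from wild type in 31 of 92 members, where 28.3% of all genes were called (16.4% higher and 12% lower). The median member difference was 0.16 beside 0.11 over all genes, and the range was -1.70 to 2.96. All arrays of the group lay above wild type for 34 members and below for 17, where 30.2% and 22.1% of all genes did so. By complex the medians were 0.20 in complex I, -0.28 in complex II, 0.18 in complex III, 0.35 in complex IV, 0.08 in complex V and -0.01 in the assembly factors. On centred arrays the members did not move as one block. Each of complexes I, III, IV and V held called members in both directions there, as did all genes. Counts were 7 higher and 3 lower in complex I, 1 and 0 in complex II, 2 and 1 in complex III, 7 and 2 in complex IV, 2 and 3 in complex V, and 2 and 1 among the assembly factors. As deposited complex I held 2 higher and 17 lower, complex II 0 and 3, and complex III 0 and 5. Complex IV then held 1 and 3 and complex V 0 and 13, where 2.32% and 43.6% of all genes were called. The share of all genes called is not given for the following fits of centred arrays with 1 array left out. Without wild-type array 1 or array 2 the higher count was 12, without array 2 of the group labelled Ets1/2 null it was 13, and the lower count was 6 without wild-type array 2 or without array 2 of the group labelled Ets1/2 null.

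In complex I the 6 core subunits on the table, which carry the flavin and iron-sulfur clusters of the peripheral arm, held 0 higher and 2 lower members with a median of -0.09. Ndufv1, the subunit that binds NADH and the flavin, gave values of 2.13, 2.16 and 2.44 (wild type), 2.26, 2.36 and 2.48 (Ets1 null), 2.47, 2.33 and 2.33 (Ets2 null) and 0.97 and 1.07 (labelled Ets1/2 null). Both of the latter arrays lay below all 9 others, which overlapped among themselves. The difference from wild type was -1.22 ± 0.14 (n = 2 and 3, adjusted p = 0.000759). Ndufs8, an iron-sulfur subunit on the way to the quinone site, read 2.90, 2.97 and 3.29 in wild type and 2.24 and 2.11 in the arrays labelled Ets1/2 null. That was -0.88 ± 0.15 (adjusted p = 0.00368), with Ets1 null at 2.80 to 3.0 and Ets2 null at 2.82 to 2.89. The other core subunits were not called: Ndufs7 had -0.31, Ndufv2 0.13, Ndufs3 0.42 and Ndufs1 0.46.

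The 27 accessory subunits of complex I, which surround the core and help its assembly and stability, held 7 higher and 1 lower member with a median of 0.32, beside 16.4% higher and 12% lower among all genes. As deposited they held 2 higher and 13 lower. Ndufv3, an accessory subunit near the NADH-binding end, had 1.66, 1.78 and 2.08 on the wild-type arrays, 1.8, 2.09 and 1.63 on those of Ets1 null, 1.58, 1.44 and 2.21 on those of Ets2 null and 3.27 and 3.69 on those labelled Ets1/2 null. The last group stood clear of the other arrays, which overlapped. Ndufv3 differed from wild type by 1.64 ± 0.26 (adjusted p = 0.00267). Ndufb11 gave values of 2.83, 2.92 and 2.88 (wild type), 3.29, 3.34 and 3.04 (Ets1 null), 2.67, 2.76 and 3.04 (Ets2 null) and 4.05 and 4.08 (labelled Ets1/2 null). Here too the last group was the highest, and Ets1 null lay between it and wild type. The difference was 1.19 ± 0.15 (adjusted p = 0.00123). Ndufa1, the other X-linked member and a small membrane subunit near the place where both arms meet, read 3.18, 3.10 and 3.13 in wild type and 4.16 and 3.91 in the arrays labelled Ets1/2 null. Its difference was 0.89 ± 0.14 (adjusted p = 0.00253). Within wild type, the male array 1 lay below both female arrays for Ndufb11 and above them for Ndufa1. Ndufa2 (0.79), Ndufa5 (0.70), Ndufa7 (0.65) and Ndufb7 (0.60) were the further higher accessory subunits. On deposited values Ndufa5 had -0.016, and Ndufa7 and Ndufb7 also fell below 0. On the same centring the second probe sets of Ndufa5 and Ndufb7 had 0.37 and 0.08. The 5 probe sets of Ndufa7 had 0.65, -0.02, 0.75, 0.42 and 0.51. Ndufb1 was the 1 lower accessory subunit at -0.80 ± 0.26 (adjusted p = 0.0452), and it read -1.37, -1.32 and -2.01 in Ets2 null, overlapping the -1.50 and -2.13 of the arrays labelled Ets1/2 null.

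Complex II links the citric acid cycle to the chain. Sdha, its flavoprotein, had 2.24, 2.22 and 2.15 on the wild-type arrays, 2.33, 2.26 and 2.41 on those of Ets1 null, 2.41, 2.36 and 2.70 on those of Ets2 null and 2.57 and 2.79 on those labelled Ets1/2 null. Wild type was below every other array, and Ets2 null overlapped the arrays labelled Ets1/2 null. The difference of the latter from wild type was 0.48 ± 0.14 (adjusted p = 0.0363), and it turned to -0.24 on deposited values. Sdhb, the iron-sulfur subunit, differed by -0.41 ± 0.15 (adjusted p = 0.0664), and the membrane anchors Sdhc and Sdhd by -0.65 ± 0.36 (adjusted p = 0.214) and -0.15 ± 0.13 (adjusted p = 0.418). Sdhc varied inside groups, with 2.41, 2.24 and 1.30 in wild type and 1.02 and 1.66 in the arrays labelled Ets1/2 null.

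In complex III the core protein Uqcrc1, which faces the matrix, gave values of 2.74, 2.80 and 2.21 (wild type), 2.55, 2.73 and 2.54 (Ets1 null), 2.51, 2.56 and 2.64 (Ets2 null) and 1.25 and 1.45 (labelled Ets1/2 null). Wild-type array 3 was the lowest of the first 9 and still above both of the last group. Uqcrc1 differed by -1.23 ± 0.19 (adjusted p = 0.00228). Uqcrb, a small subunit that takes part in ubiquinone binding, went the opposite way. It had 4.22, 4.25 and 4.13 on the wild-type arrays, 4.32, 4.28 and 4.28 on those of Ets1 null, 4.10, 4.24 and 4.21 on those of Ets2 null and 5.25 and 5.03 on those labelled Ets1/2 null. The first 9 arrays lay close together, and the difference was 0.94 ± 0.12 (adjusted p = 0.00130). Uqcr10, one of the smallest subunits of the complex, was higher by 0.59 ± 0.16 (adjusted p = 0.0213). Its sign turned on deposited values, with 11.78, 11.87 and 12.30 in wild type and 11.85 and 11.86 in the arrays labelled Ets1/2 null. Cyc1, the cytochrome c1 heme subunit, had -0.58 ± 0.25 (adjusted p = 0.108). Between complexes III and IV, Cycs had -0.77 ± 0.37 (adjusted p = 0.158), and its arrays labelled Ets1/2 null read 3.33 and 2.21, more than 1 log2 unit apart.

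Complex IV held the member with the highest difference. Cox7a1, the isoform of subunit VIIa known from heart, skeletal muscle and brown fat, gave values of -4.32, -4.46 and -1.53 (wild type), -2.83, -3.24 and -4.22 (Ets1 null), -4.47, -4.14 and -4.12 (Ets2 null) and -0.72 and -0.23 (labelled Ets1/2 null). Wild-type array 3 lay far above the other wild-type arrays, and the last group was above all 9. The probe set was among the dimmest in wild-type arrays 1 and 2 and the Ets2 null arrays, where 0.191% to 0.726% of all genes read lower, and whether it was above background there was not tested. In the arrays labelled Ets1/2 null 35.2% and 45.2% of genes read lower. The difference was 2.96 ± 0.79 (adjusted p = 0.0223), and it was 3.92 without wild-type array 3. Its call was lost without wild-type array 1 or 2 and without either array of the group labelled Ets1/2 null, with differences of 2.45 to 3.21.

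The paralogs of subunit VIIa were also higher on centred arrays. Cox7a2, the isoform found in most tissues, had 0.52 ± 0.15 (adjusted p = 0.0323), but -0.20 on deposited values and 0.06 in its second probe set. Cox7a2l, which helps join complexes III and IV into supercomplexes, had 1.08 ± 0.24 (adjusted p = 0.0113), reading 2.32, 2.50 and 2.46 in wild type and 3.41 and 3.60 in the arrays labelled Ets1/2 null. Ets1 null (2.39 to 2.93) and Ets2 null (2.11 to 2.85) overlapped wild type. Cox5b, a subunit on the matrix side, read 4.04, 4.19 and 3.77 in wild type and 4.96 and 4.99 in the arrays labelled Ets1/2 null, a difference of 0.98 ± 0.16 (adjusted p = 0.00267). The other paralogs split. Cox6a2, the muscle isoform of VIa, was higher on centred arrays by 0.70 ± 0.17 (adjusted p = 0.0139). As deposited it read 7.87, 7.65 and 7.59 in wild type and 7.74 and 7.64 in the arrays labelled Ets1/2 null, a difference of -0.017. Cox6a1, the general isoform, had 0.32 ± 0.17 (adjusted p = 0.187). Cox6b1 was higher by 0.52 ± 0.14 (adjusted p = 0.0210), but it had -0.21 on deposited values and -0.034 in a fit of second probe sets. Its testis paralog Cox6b2 had -0.27 ± 0.67 (adjusted p = 0.801). Cox4i1, a subunit that touches the catalytic core, was higher by 0.51 ± 0.16 (adjusted p = 0.0390) and had -0.21 on deposited values. Its paralog Cox4i2, and Cox8b, were not analysed here.

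Lower members of complex IV were both isoforms of subunit VIII on the table. Cox8a, the isoform of most tissues, had 4.10, 4.05 and 4.29 on the wild-type arrays, 4.02, 4.07 and 4.08 on those of Ets1 null, 4.13, 4.10 and 4.39 on those of Ets2 null and 3.15 and 3.45 on those labelled Ets1/2 null. The first 9 arrays overlapped and the last group lay below them, at -0.85 ± 0.15 from wild type (adjusted p = 0.00440). The testis isoform Cox8c had -0.48 ± 0.14 (adjusted p = 0.0328) and 0.16 in a fit of second probe sets. Ndufa4 had -0.02 ± 0.19, and its hypoxia-induced paralog Ndufa4l2 0.38 ± 0.29, with -2.01 and -0.91 in the arrays labelled Ets1/2 null.

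In the ATP synthase Atp5g1, Atp5g2 and Atp5g3 encode the same mature proton-carrying subunit of the c-ring. Of these only Atp5g2 was called on centred arrays, and the genes were not tested against each other. Atp5g2 gave values of 3.29, 3.53 and 3.42 (wild type), 3.51, 3.84 and 3.68 (Ets1 null), 3.19, 3.27 and 3.38 (Ets2 null) and 1.55 and 1.89 (labelled Ets1/2 null). It was the lowest member of all, with -1.70 ± 0.16 (adjusted p = 0.000312). Atp5g1 had -0.36 ± 0.18 (adjusted p = 0.176) and Atp5g3 0.07 ± 0.12 (adjusted p = 0.707). Atp5g3 read 4.47 to 4.62 in wild type and 4.59 to 4.62 in the arrays labelled Ets1/2 null, which overlap. Atp5mpl had 2.73, 2.85 and 2.82 on the wild-type arrays, 2.56, 2.80 and 2.69 on those of Ets1 null, 2.47, 2.44 and 2.54 on those of Ets2 null and 2.04 and 1.92 on those labelled Ets1/2 null. Ets2 null lay between wild type and the last group without overlap. Its difference in the arrays labelled Ets1/2 null was -0.82 ± 0.13 (adjusted p = 0.00228). The catalytic beta subunit Atp5b was lower by a smaller step, -0.49 ± 0.13 (adjusted p = 0.0198). Atp5md, a small membrane subunit tied to dimers of the enzyme, was higher by 0.97 ± 0.18 (adjusted p = 0.00459), with 2.14, 2.25 and 2.50 in wild type and 3.48 and 3.04 in the arrays labelled Ets1/2 null. Atp5d, the delta subunit of the central stalk, had 0.66 ± 0.18 (adjusted p = 0.0250) in its brightest probe set only.

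Among the assembly factors, 2 of the 4 for complex II were higher. Sdhaf3, which takes part in the maturation of Sdhb, read -1.10, -1.17 and -1.0 in wild type and -0.21 and 0.25 in the arrays labelled Ets1/2 null, a difference of 1.11 ± 0.18 (adjusted p = 0.00261). Sdhaf4, which binds Sdha once its flavin is in place, had 1.03 ± 0.30 (adjusted p = 0.0306), and its Ets2 null arrays (0.93 to 1.51) overlapped the arrays labelled Ets1/2 null (1.30 and 2.06). Sdhaf1 had -0.53 ± 0.18 (adjusted p = 0.0574) and Sdhaf2 0.03 ± 0.14 (adjusted p = 0.891). Ndufaf5, an enzyme that modifies Ndufs7 during complex I assembly, was lower by 0.70 (difference -0.70 ± 0.20, adjusted p = 0.0277).

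**Figure D2:**
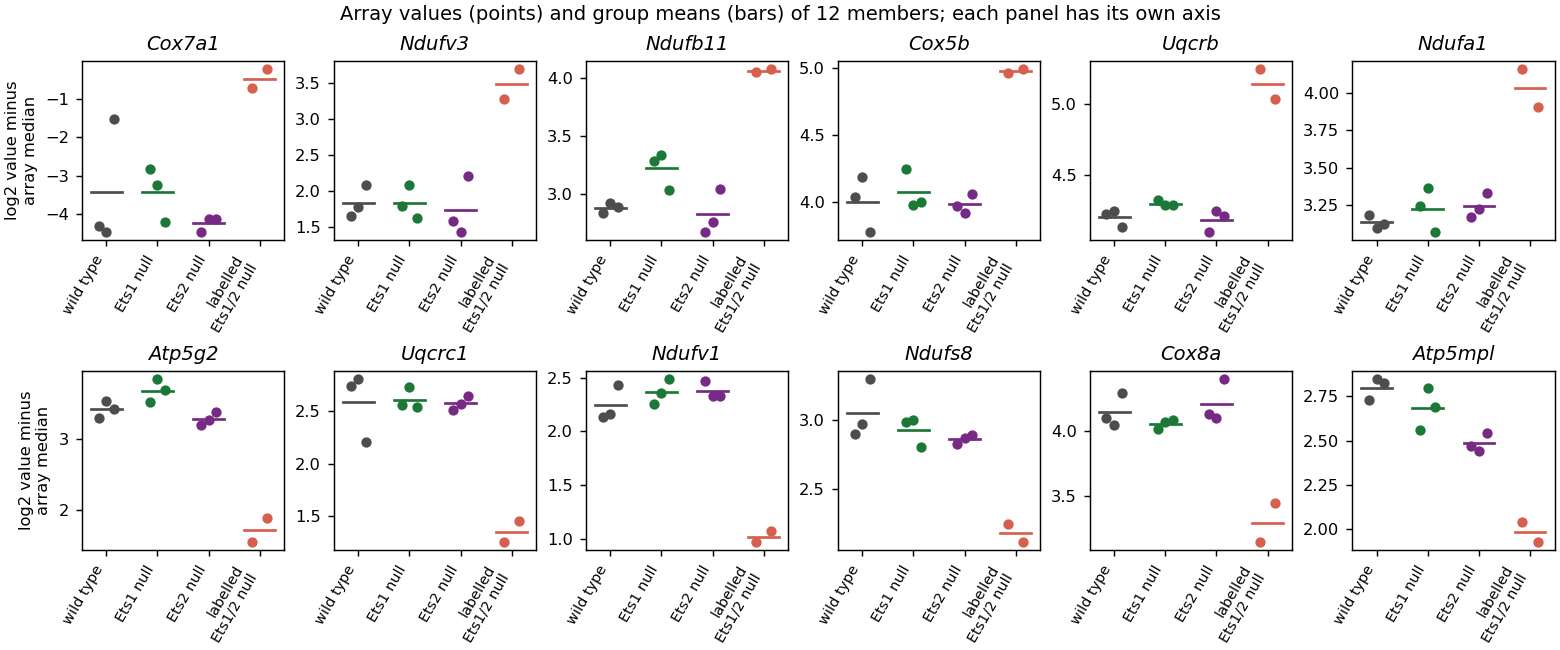
Centred log2 values of 12 members in each array (points) with group means (bars), each panel on its own axis. The upper panels show members that were higher and the lower panels members that were lower in the arrays labelled Ets1/2 null, whose points stand apart from wild type in all 12 panels.

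The arrays labelled Ets1/2 null were also set against each single null. These comparisons share their arrays with the one above and are not independent of it. Against Ets1 null, 21 members were higher and 9 lower, where 28.7% of all genes were called (17.4% higher and 11.3% lower), with a median of 0.20 beside 0.17. Against Ets2 null, 21 were higher and 12 lower, where 30.3% were called (17.1% and 13.2%), with a median of 0.20 beside 0.14. All 3 Ets2 null arrays were male and both arrays labelled Ets1/2 null female, and with a term for male arrays 0 members were higher and 2 lower (0.808% and 1.56% of all genes). Only wild type held arrays of both sexes, so that term was set by wild-type array 1 against wild-type arrays 2 and 3. The part of sex in the lost calls was not tested. Atp5g2 had -1.96 ± 0.16 and -1.56 ± 0.16 against Ets1 null and Ets2 null, Ndufv1 -1.34 and -1.35, and Uqcrc1 -1.26 and -1.22. Ndufv3 had 1.64 and 1.74, Ndufb11 0.84 and 1.24, and Cox7a1 2.96 and 3.77. In the fit without that term some members were called against Ets2 null and not against wild type. They were Cox6b2 (-2.17), the assembly factor Sdhaf1 (-0.66), Ndufs7 (-0.54, and 0.50 in a fit of second probe sets), Sdhb (-0.46), Ndufs5 (1.52), Ndufs4 (0.58), Ndufc2 (0.58), Ndufa9 (0.42) and Ndufaf1 (0.84). Against Ets1 null the additional calls were Ndufc2 (0.68), the peripheral stalk subunit Atp5j (0.51) and Ndufaf1 (0.81).

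The interaction is the difference of the arrays labelled Ets1/2 null from Ets1 null less that of Ets2 null from wild type. By the titles it sets Ets2 deletion in Ets1-/- cells against that in Ets1+/+ cells, which the Ets1 and Ets2 readings above do not bear out. By the genotypes, Ets2 null also differed from wild type in the floxed Ets2 alleles. The arrays labelled Ets1/2 null shared these alleles with Ets1 null, so both differences are not alike. It was called for 13 members, 9 above and 4 below 0, where 14.5% of all genes were called (7.54% above and 6.94% below 0), and its median was 0.22 beside 0.18 over all genes. Below 0 were Atp5g2 (-1.82 ± 0.21, adjusted p = 0.00166), Ndufv1 (-1.48 ± 0.19, adjusted p = 0.00237), Uqcrc1 (-1.25 ± 0.25, adjusted p = 0.0140) and Cox8a (-0.82 ± 0.20, adjusted p = 0.0297). In a fit of second probe sets, centred on its own array medians, Ndufv1 had 0.11, and none of the 3 with a second probe set was called again. On the main centring the second Ndufv1 probe set had -0.54 in the arrays labelled Ets1/2 null against Ets1 null. In Ets2 null against wild type it had -0.53. Above 0 were Cox7a1 (3.76), Ndufv3 (1.74), Atp5md (1.10), Sdhaf3 (0.93), Cox5b (0.92), Ndufb11 (0.90), Uqcrb (0.86), Cox7a2 (0.75) and Ndufa1 (0.70). With deposited values none of the 9 was called and 35 members were called below 0, where 1.51% and 30.1% of all genes were called above and below 0. With a term for male arrays in the fit, again set within wild type only, 0 members were called above and 2 below 0 (2.61% and 3.04% of all genes).

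The count on the higher side differed with the scale of the arrays. As deposited, without centring, 3 members were higher and 48 lower than wild type in the arrays labelled Ets1/2 null, with a median of -0.56 beside -0.61 over all genes, of which 2.32% were called higher and 43.6% lower. Quantile normalization gave 10 higher and 14 lower with a median of -0.08 beside 0.03 (12.4% and 13.2% of all genes). Cyclic loess gave 13 and 12 with -0.02 beside 0.02 (12.9% and 13.7% of all genes). All 10 members called lower after centring were also called lower in the other 3 scalings. Leaving out the centring moves every difference of this comparison down by the same amount. The deposited scale thus could not raise a lower difference, and it works against each higher call. Of the 21 called higher, 3 were called in all 4 scalings: Cox7a1, Ndufv3 and Ndufb11. The other higher members were higher relative to the median of their arrays and were not called higher on the deposited scale. Medians of complexes I, III and V were above 0 after centring and below 0 as deposited. Complex IV had 0.35, -0.37, 0.07 and 0.18 on centred, deposited, quantile-normalized and loess-normalized arrays. Complex II was below 0 in each, at -0.28, -1.0, -0.52 and -0.43.

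**Figure D3:**
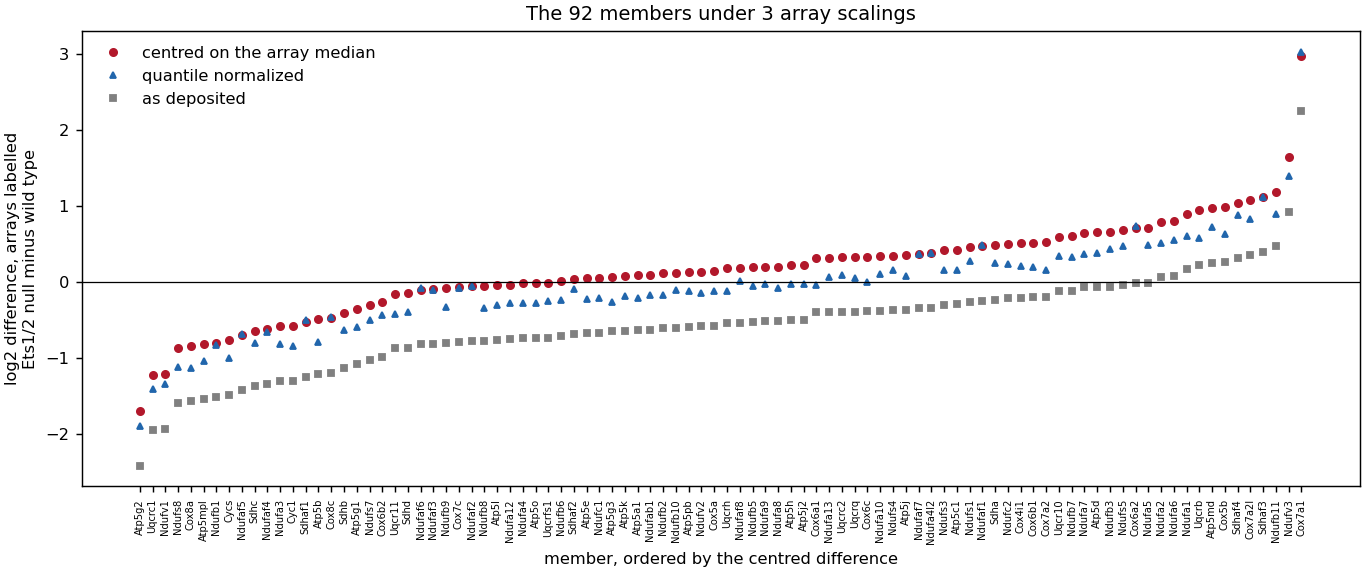
Log2 difference of each of the 92 members between the arrays labelled Ets1/2 null and wild type, ordered by the centred difference, with the same difference after quantile normalization and as deposited. The points as deposited lie below the centred ones throughout, and Cox7a1 and then Ndufv3 hold the highest places on all 3 scales.

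Of the members, 49 had more than 1 probe set. Among 17 of these called in the arrays labelled Ets1/2 null against wild type, the next brightest probe set had the same sign in 14, was called in the same direction in 6 and in the opposite direction in 1. The higher calls found again were 4 of 12 and the lower calls 2 of 5, Ndufv1 and Cox8a. In that fit 20.1% and 14.2% of all genes were called higher and lower. Only 4785 of the 11015 genes have a second probe set, and the others were read there from their only one. These shares are thus not those of second probe sets alone. All 5 probe sets of Cox5b had like differences, from 0.84 to 0.98, and the 3 of Ndufb11 had 1.19, 0.47 and 1.24. For Ndufv1 the values were -1.22, -1.05 and -0.60. Ndufs8 split, with -0.88, -0.87 and -1.02 in some probe sets and -0.35, -0.30 and -0.30 in the others. Atp5d gave opposite results. Its second probe set read 3.33, 3.44 and 2.99 in wild type and 0.85 and 1.08 in the arrays labelled Ets1/2 null, a difference of -2.29 against 0.66 in the brightest. In the 9 other arrays that second probe set stayed between 2.99 and 3.75. Which transcript stretch each Atp5d probe set covers was not tested, and Atp5d has no settled direction. The second probe set of Atp5g2 was dim, at -2.94 to -1.23 in wild type, and differed by -0.24. The probe sets of Ndufc2 had 0.50, -0.02 and -0.82, and Cox7a2l 1.08, 0.26 and 0.53. Cox7a1, Ndufv3, Uqcrc1, Atp5mpl, Atp5md, Ndufa1 and Sdhaf3 rest on 1 probe set each.

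**Figure D4:**
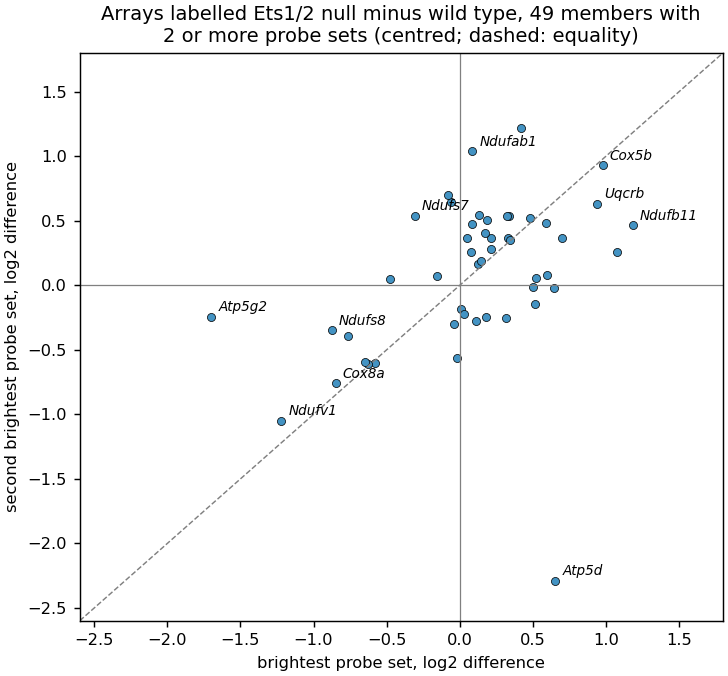
Centred log2 difference between the arrays labelled Ets1/2 null and wild type for the brightest (horizontal) and the second brightest probe set (vertical) of 49 members, with the dashed line at equality. Cox5b, Ndufv1 and Cox8a lie near the line, and Atp5d lies at 0.66 and -2.29.

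ETS factors bind a GGA core, and the longer form CCGGAAG is common in promoters of housekeeping genes. RefSeq (GRCm38.p6) promoter windows of 300 bases, from 250 before to 50 after a gene's start, were at hand for 76 members and searched on both strands. The letters CCGGAAG or their reverse complement stood in a window of 22 of the 76 members (28.9%), of 20.6% of 8907 genes on the table and in 8.86% of all 32851 windows. They stood in 4 of 17 higher, 2 of 8 lower and 16 of 51 members that were not called. The letters GCGCA directly followed by their reverse complement TGCGC, a form of the site of NRF1, a regulator of respiratory chain genes, stood in 6 of 76 members (7.89%), in 2.39% of genes on the table and in 0.971% of all windows. They stood in 0 of 17 higher, 3 of 8 lower and 3 of 51 members that were not called. The 3 lower ones were Atp5g2, with the first base at -42, and Ndufaf5 and Uqcrc1, with it after the start at 17 and 31. For AAGATGGCG, a form of the YY1 site, the count was 7 of 76, for TGACGTCA, the CRE, 4 of 76, and none of either was in a called member. These matches are counts of letters and say nothing of binding.

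The 150 bases before the start are shown for the 3 members with the highest and the 3 with the lowest difference that were called in the arrays labelled Ets1/2 null, and for 3 called members that hold the ETS letters there. Capitals mark the NRF1 letters in Atp5g2 and the ETS letters in Sdhaf3, Ndufb7 and, as the reverse complement, Cox6b1, and the other stretches hold neither. The stretches run 5′ to 3′ on the gene's strand, in GRCm38.p6: Cox7a1 chr7:30184021-30184170 (+), Ndufv3 chr17:31519965-31520114 (+), Ndufb11 chrX:20617620-20617769 (-), Ndufv1 chr19:4012756-4012905 (-), Uqcrc1 chr9:108936498-108936647 (+), Atp5g2 chr15:102671048-102671197 (-), Sdhaf3 chr6:6955868-6956017 (+), Ndufb7 chr8:83566608-83566757 (+) and Cox6b1 chr7:30626115-30626264 (-). All lie upstream of the transcript start that RefSeq annotates.
Cox7a1: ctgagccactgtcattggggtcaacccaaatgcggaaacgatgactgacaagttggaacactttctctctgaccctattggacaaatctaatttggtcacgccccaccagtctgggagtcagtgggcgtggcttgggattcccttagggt
Ndufv3: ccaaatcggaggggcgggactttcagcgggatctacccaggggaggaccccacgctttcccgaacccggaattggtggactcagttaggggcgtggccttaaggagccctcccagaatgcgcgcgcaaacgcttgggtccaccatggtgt
Ndufb11: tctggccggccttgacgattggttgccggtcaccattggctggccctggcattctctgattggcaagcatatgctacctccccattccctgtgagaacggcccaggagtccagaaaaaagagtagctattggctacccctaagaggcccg
Ndufv1: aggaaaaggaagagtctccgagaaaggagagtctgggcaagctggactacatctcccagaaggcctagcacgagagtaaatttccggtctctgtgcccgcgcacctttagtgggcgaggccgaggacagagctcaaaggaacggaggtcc
Uqcrc1: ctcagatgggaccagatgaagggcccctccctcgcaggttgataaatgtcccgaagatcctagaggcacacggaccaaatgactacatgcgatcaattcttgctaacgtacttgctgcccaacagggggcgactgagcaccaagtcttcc
Atp5g2: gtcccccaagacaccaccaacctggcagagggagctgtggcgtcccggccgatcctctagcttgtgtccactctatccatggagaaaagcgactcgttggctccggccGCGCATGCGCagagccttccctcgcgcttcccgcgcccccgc
Sdhaf3: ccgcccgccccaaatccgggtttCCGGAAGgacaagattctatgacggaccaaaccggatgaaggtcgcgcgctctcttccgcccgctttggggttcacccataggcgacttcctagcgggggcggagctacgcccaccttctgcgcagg
Ndufb7: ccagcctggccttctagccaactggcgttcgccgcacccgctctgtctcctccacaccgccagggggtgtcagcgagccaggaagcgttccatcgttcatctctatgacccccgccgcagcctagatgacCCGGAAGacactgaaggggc
Cox6b1: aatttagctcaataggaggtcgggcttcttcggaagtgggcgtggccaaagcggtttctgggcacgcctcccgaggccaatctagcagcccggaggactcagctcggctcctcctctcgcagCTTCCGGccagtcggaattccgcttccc

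The wider mitochondrial gene lists gave the following counts of members higher and lower in the arrays labelled Ets1/2 null against wild type, where 16.4% and 12% of all genes were called. The mitochondrial ribosome, which translates the subunits encoded by mitochondrial DNA, had 7 higher and 20 lower of 76, with a median of -0.21. Its lowest genes were Mrpl19 (-2.30 ± 0.12), Mrps11 (-1.85 ± 0.16), Mrpl4 (-1.82 ± 0.14) and Mrpl34 (-1.60 ± 0.19). Protein import had 4 higher and 8 lower of 32, among them Tomm40, the channel of the outer membrane (-3.06 ± 0.22, adjusted p = 0.000140), Timm13 (-1.44) and Timm21 (1.41). As deposited the ribosome list held 0 higher and 60 lower and the import list 1 and 21, where 2.32% and 43.6% of all genes were called. Further assembly and copper-delivery genes had 10 higher and 7 lower of 37, and 1 and 16 as deposited. Cox17, a copper chaperone of complex IV, was higher by 1.09 ± 0.15 but by 0.37 (adjusted p = 0.0990, limma) as deposited. Cox10, which is needed to make heme A for complex IV, had -1.09 ± 0.19, and the complex I assembly factor Tmem126b had -1.81 ± 0.30. Regulators of mitochondrial biogenesis had 4 higher and 2 lower of 25, and 1 and 11 as deposited. Among them the coactivator Pprc1 had -1.83 ± 0.30. Tfb1m, which methylates mitochondrial ribosomal RNA, had 1.63 ± 0.21 (0.51 in a fit of second probe sets). Citric acid cycle and pyruvate dehydrogenase genes had 3 higher and 1 lower of 25, and 0 and 12 as deposited. Among them the kinase Pdk4 had 2.79 ± 0.75 (2.07 as deposited, adjusted p = 0.0558, limma) and Ogdh -0.91 ± 0.12 (-0.0024 in a fit of second probe sets). Carriers and channels had 2 higher and 5 lower of 16 (0 and 9 as deposited), with the citrate carrier Slc25a1 at -1.54 ± 0.39. In these lists 0 genes were called by limma in Ets1 null (0.00908% of all genes) and 2 in Ets2 null (0.436% of all genes). The latter were Pdk1, a kinase that restrains pyruvate entry and a known hypoxia target (-2.00 ± 0.30, adjusted p = 0.0398), and Higd1a, a hypoxia-induced partner of complex IV (-1.65 ± 0.27, adjusted p = 0.0484). Higd1a lost its call in Ets2 null on deposited values (adjusted p = 0.0542, limma), and the fit of second probe sets gave 0.051. In the arrays labelled Ets1/2 null Higd1a was higher than wild type by 1.97 ± 0.31 (adjusted p = 0.00241).

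Markers of other cell types were read beside Cox7a1, Cox6a2 and Cycs, because the arrays hold whole cultures, in which fewer cells of a type and less RNA per cell cannot be told apart. None of 9 striated muscle markers is on the table. Of 8 adipocyte markers 2 are, and the arrays labelled Ets1/2 null read -3.54 and -3.54 for Ucp1 and -3.64 and -4.73 for Adipoq. Wild type read -3.06, -2.73 and -2.36 for Ucp1, and -5.39, -5.42 and 1.40 for Adipoq. Adipoq was thus high in wild-type array 3, the wild-type array with the highest Cox7a1. It was also high in Ets2 null arrays 2 and 3 (2.77 and 3.77), where Cox7a1 read -4.14 and -4.12, near the lowest wild-type values. Of 8 smooth muscle and pericyte markers 6 are on the table, with medians of -0.83, 1.20 and -0.64 in wild type and 1.31 and -0.76 in the arrays labelled Ets1/2 null. Medians of the 8 fibroblast markers were 0.50 to 0.61 in wild type and 2.28 and 0.86 in the arrays labelled Ets1/2 null, and all 4 leukocyte markers on the table together had medians of -2.41 to -2.17 and -2.33 to -2.18. The 3 endothelial markers had medians of 1.17, 0.38 and -1.29 in the wild-type arrays. The arrays labelled Ets1/2 null had -1.30 and -2.13, those of Ets1 null -2.04 to -1.17, and those of Ets2 null 0.46 to 1.43. Of 7 epithelial and mesothelial markers 4 are on the table, with medians of -1.85, -1.51 and 0.06 in wild type. They had 0.40 and -1.08 in the arrays labelled Ets1/2 null, -0.29 to 0.14 in Ets1 null and -1.52 to -1.24 in Ets2 null. Wild-type array 3 was thus the highest wild-type array here too. The part of cell composition in the member differences was not tested.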

How the data were processed

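The deposited values are log2 expression per probe set, made by the authors with RMA per the submitters' processing notes. Not given in the sources used here are the version of RMA, a filter on probe sets, and whether RMA was run on all arrays at once. Titles and genotypes were followed where the free-text descriptions of Ets1 null and Ets2 null call the deleted gene wild type.

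Each gene was read from its probe set with the highest mean, among 18824 probe sets with 1 symbol, and 9 symbols that only occur on probe sets with several symbols were not counted. All 92 members matched RefSeq by Entrez identifier. Arrays were centred on their median over 11015 genes. In the fit of second probe sets, genes with 1 probe set kept it. That fit was centred on the array medians of its own probe sets. Its differences are therefore not on the scale of the values given for single probe sets. limma 3.58.1 in R 4.3.3 (lmFit, eBayes, two-sided) fitted 1 mean per group over 11 arrays with 7 residual degrees of freedom, and its code was tested on simulated data. The number of arrays limits the precision. The members, the lists and the rule on which genes to name were chosen with earlier results of these data known. The rule names, in each of 6 comparisons, up to 12 called members per direction, the extremes of each complex in each null, paralog families, Sdh genes, Cyc1 and Cycs, and up to 4 called genes of each other list. There were 23 alternatives. Cyclic loess and a term for male arrays were added after seeing the data. Tables were joined with pandas 2.3.3 and plots drawn with matplotlib 3.10.9.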

Additional observations from a re-analysis of the deposited data

Results flagged for a closer look

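By limma's interaction term, the difference of the arrays labelled Ets1/2 null from Ets1 null was unlike that of Ets2 null from wild type for 13 members, 9 above 0 and 4 below 0 in centred values. That is 13 of 92 members, where 14.5% of all genes were called, so the share of members is near that of all genes. The log2 interaction was 3.76 for Cox7a1, 1.74 for Ndufv3, 1.10 for Atp5md, 0.93 for Sdhaf3, 0.92 for Cox5b, 0.90 for Ndufb11, 0.86 for Uqcrb, 0.75 for Cox7a2 and 0.70 for Ndufa1. It was -1.82 for Atp5g2, -1.48 for Ndufv1, -1.25 for Uqcrc1 and -0.82 for Cox8a. The 4 values below 0 were also called on the deposited scale, and none of the 9 above 0 was. That scale moves every interaction down by the same amount, so it is no check of the values below 0. With a term for male arrays, which was set within wild type only, Atp5g2 and Ndufv1 alone stayed called. Of the 3 called below 0 that have a second probe set, 0 were called again by it, and Ndufv1 turned to 0.11 there.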

How the results depend on the processing

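Of the summary values over members (counts called higher and lower and the median, in 6 comparisons), 336 of 411 recomputed ones stayed within 1.5 times the count or within the replicate spread of 0.0603 of the median. The 336 include medians that could not change. Those are medians with an array outside the comparison left out, or with only the arrays compared in the fit. In the order wild type, Ets1 null, Ets2 null and interaction, deposited values gave 3, 1, 4 and 0 higher, 48, 52, 47 and 35 lower, and medians of -0.56, -0.56, -0.51 and -0.53. Quantile normalization gave 10, 10, 13 and 2 higher and medians of -0.080, -0.072, -0.058 and -0.048, and cyclic loess 13, 10 and, in the interaction, 3 higher with medians of -0.022, 0.0088, 0.00080 and 0.014. The second brightest probe set gave 6, 5, 6 and 2 lower and medians of 0.30, 0.33, 0.36 and 0.35, and the mean of probe sets medians of 0.26, 0.28 and 0.31. Only the arrays compared gave 7, 11 and 12 higher, and 4 and 5 lower against wild type and Ets2 null. Array weights gave 1 higher and 2 lower in Ets2 null against wild type, 7 lower against Ets2 null and 7 lower in the interaction. All 12 columns gave 18 higher in the interaction. A term for male arrays gave 12, 0 and 0 higher against wild type, against Ets2 null and in the interaction, 2 and 2 lower in the last pair, medians of 0.12 and 0.15 there, and a median of 0.054 in Ets2 null against wild type. Only wild type held both sexes, so it alone set that term. The replicate number as a block gave 7 lower against Ets2 null and 3 higher in the interaction. The numbers do not pair the samples: the correlations of same-numbered deviations ran from -0.325 to 0.104 over 15 pairs. Where no share of all genes is given for a setting, a change in member calls cannot be told from one over all genes.

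Leaving out 1 array at a time, the higher counts ran from 12 to 22 (wild type), 10 to 22 (Ets1 null), 14 to 24 (Ets2 null) and 3 to 12 (interaction), the lower counts from 6 to 12, 7 to 10, 6 to 13 and 3 to 5, and the medians from 0.12 to 0.24, 0.15 to 0.22, 0.16 to 0.24 and 0.15 to 0.25. The single nulls against wild type stayed at 0 calls, with medians of -0.03 to 0.04 and -0.06 to 0.004. Shares of all genes called are not given for these fits. A change in member calls cannot be told from one over all genes here either.

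Of 89 calls of a named member in a comparison, 9 held in all alternatives that gave a value: Ndufv1, Ndufv3, Ndufb11, Uqcrc1 and Atp5mpl against wild type, and Ndufv3, Uqcrc1, Cox8a and Atp5mpl against Ets1 null. Not every alternative could have changed these calls. Ndufv3, Uqcrc1 and Atp5mpl have 1 probe set each, which the fits of second probe sets and of probe set means read again. For the lower calls the deposited scale could not raise the difference. Signs turned in 19 values of these 89 calls. With deposited values they were, against wild type, Ndufa5 -0.016, Sdha -0.24, Cox4i1 -0.21, Cox6a2 -0.017, Cox6b1 -0.21 and Cox7a2 -0.20. Against Ets1 null they were Cox7a2 -0.047, Cox6a2 -0.076 and Cox6b1 -0.16, against Ets2 null Cox6a2 -0.013, Cox6b1 -0.23 and Cox7a2 -0.15, and in the interaction Ndufa1 -0.051. With the second brightest probe set they were Cox8c 0.16 and Cox6b1 -0.034 (wild type), Ndufs7 0.50, Cox8c 0.12 and Cox6b1 -0.14 (Ets2 null), and Ndufv1 0.11 (interaction). On the main centring these second probe sets had 0.048 for Cox8c and -0.14 for Cox6b1 against wild type. Ndufa7, Ndufb7, Uqcr10 and Atp5d were called higher against wild type outside these 89 calls, and they were also below 0 as deposited. The cause of the turned signs was not tested.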
